A study of Mus musculus with 6 samples.

Results

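The regions described here are the entries of a list of PPARγ-bound regions in mouse adipocytes that the authors made by combining 3 datasets, divided by whether they overlap the authors' shorter, final adipocyte PPARγ list. That final list is called stringent here, because each of its regions has a fold of at least 5 over a control and the same false discovery rate of 0.34%. A combined region went into the first class if it overlapped a stringent region by at least 1 bp, and into the second class if it did not. On the 19 autosomes, 2527 of 12165 combined regions belonged to the first class and 9638 to the second. The whole combined list holds 12430 regions, and the stringent list holds 2610 autosomal ones.

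PPARγ is a ligand-activated nuclear receptor that binds DNA as a pair with RXR. It is the factor best known for driving fat-cell differentiation, and it also acts in macrophages. C/EBPβ is a leucine-zipper factor used in both lineages, whereas PU.1, of the ETS family, is a master regulator of myeloid cells and B cells. Acetylation of histone H3 at lysine 9 (H3K9Ace) marks active promoters and enhancers. The macrophage lists show which of the places bound in fat cells are also bound or acetylated in a cell type of another lineage.

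Occupancy was measured by ChIP-seq, the sequencing of DNA that an antibody pulls down with a chromatin protein. PPARγ and H3K9Ace libraries of adipocytes came from nuclear lysates of 3T3-L1, a preadipocyte line that had been differentiated. The macrophages were primary cells of male C57BL/6 mice, with no altered allele or drug named, given 1 ml of 3% thioglycollate, taken by peritoneal lavage on day 3 and kept 24 h to adhere. They gave PPARγ, PU.1, C/EBPβ and H3K9Ace libraries from whole-cell lysates. Cells of at least 4 mice were pooled for each sequencing run, and the macrophage PPARγ data joined 2 runs. All 6 libraries are the only ones of their group. The lists hold positions and not expression, so neither cell type could be checked against its marker genes. The description field of every library names PPARγ, and targets were taken from titles and antibody fields. The labels list a pair of PPARγ antibodies without assigning them to libraries. Which 3 datasets were combined, how, and whether the adipocyte library deposited here is among them is not stated.

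No comparison below has replicates, and no test was run. Shares carry 95% Wilson intervals, differences of shares carry Newcombe intervals, and medians carry exact binomial intervals. The interval of a ratio of medians was formed by dividing opposite bounds of both medians, and is not itself a 95% interval. All of these cover counting error only, treat regions as independent, and compare lists and not replicated cell populations. The sequencing depth is unknown. All positions are in mouse build mm8 as deposited, and since no mm8 annotation or sequence was used here, regions are given by position without gene names.

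The stringent list was nested in the combined list almost without exception. Of the 2610 stringent regions, 2609 lay wholly inside a combined region, which gave 20.8% of combined regions a stringent peak (interval 20.1 to 21.5%). Most of these combined regions, 2453, held 1 stringent region, 67 held 2, 6 held 3 and 1 held 4. The combined regions of the first class covered 2.79 Mb, the second class covered 7.94 Mb, and the stringent regions covered 0.746 Mb. A stringent region was usually the core of a broader combined region: stringent peaks took up a median of 25.5% of the combined region around them. The centres of both lay a median of 70.5 bp apart (quartiles 23.5 and 156 bp, highest 1587 bp), which was 13.7% of the way from the centre of the combined region to its bound.

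The 1 stringent region outside the combined list lies on chromosome 1 from 89678076 to 89678440. It was not a weak peak: the authors' fold was 15.6, which ranks 11 in the stringent list, and the peak height was 26. The nearest combined region was 43187 bp away. A deposited masked interval, one of those the authors subtracted for bias in the input, began 83 bp from it and spans 89678523 to 89679175. The region overlapped no H3K9Ace, PU.1, C/EBPβ or macrophage PPARγ region. An entry of a longer macrophage PPARγ list, which includes weaker peaks, also lay 83 bp from it. Within 1 kb of any masked interval lay 2 stringent and 2 combined regions, and none overlapped one.

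Combined regions with a stringent peak were wider than the rest. A wider region overlaps any list more easily, so the width comparisons in this paragraph are partly fixed by the rule that made the classes. Their median width was 1149 bp (interval 1131 to 1168, quartiles 822 and 1397, range 119 to 4092 bp), and regions without one had a median of 838 bp (831 to 845, quartiles 624 and 1063, range 197 to 2789 bp). The ratio of the medians was 1.37, and the quartiles of the classes overlapped. The share with a stringent peak did not climb evenly with width. It was 72.3% of the 184 regions under 250 bp, 14.6% of the 2357 regions from 250 to 500 bp and 4.11% of the 1680 regions from 600 to 700 bp. From there it was higher in each wider band, at 11.0% from 700 to 1000 bp, 29.4% from 1000 to 1500 bp, 56.7% from 1500 to 2000 bp and 80.9% of the 141 regions of 2000 bp or more.

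**Figure D1:**
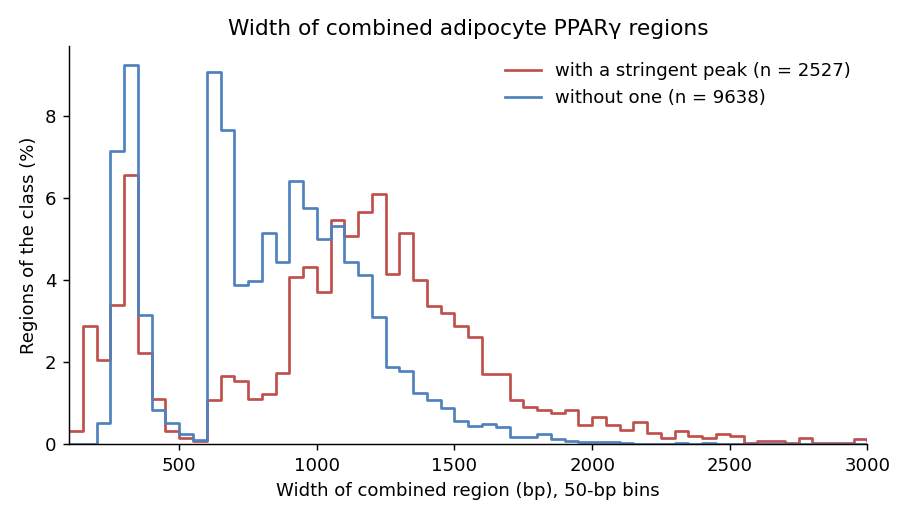
Width of combined adipocyte PPARγ regions in 50-bp bins (horizontal axis, bp) against the percent of each class in the bin (vertical axis), for 2527 regions with a stringent peak and 9638 without one. The second class has a tall spike in the bin that holds 624 bp, and the first class extends further to the right, with medians of 1149 and 838 bp.

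The high share among the narrowest regions came from entries that repeat a stringent region exactly. All 133 stringent-peak regions under 250 bp had the same start and end as their stringent region. In all, 170 stringent regions shared both bounds with a combined region, 135 shared exactly one bound and 2304 lay inside with neither bound in common. The combined list also holds a preferred width: 875 of its autosomal regions were exactly 624 bp wide, against 109 at the next most frequent width, 660 bp. Of the 624-bp regions, 851 lacked a stringent peak and 24 had one. These subgroups were chosen after their values were seen. The combined list therefore holds entries of more than 1 form, and the forms differ in width.

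The strongest stringent peaks sat in acetylated regions of very different widths, from 421 to 4092 bp. The 6 combined regions with the highest stringent fold all overlapped adipocyte H3K9Ace, and 3 of them lie on chromosome 6. The first, at 134567426 to 134567847, is 421 bp wide with a fold of 18.6 and a height of 40, in an H3K9Ace domain of 5950 bp. The second, at 140591658 to 140592680, is 1022 bp wide with a fold of 18.5, in a domain of 12700 bp. The third, at 5457683 to 5460889, is 3206 bp wide and holds 3 stringent regions, with a highest fold of 18.4 and the greatest height of the list, 46. These 3 regions overlapped no macrophage list, and neither did the fourth, on chromosome 19 at 15971216 to 15972775 (1559 bp, fold 18.2).

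The remaining members of that group of 6 were also marked in macrophages. The region on chromosome 2 at 163162637 to 163164671 (2034 bp, 2 stringent regions, fold 17.9) overlapped macrophage C/EBPβ and H3K9Ace. The region on chromosome 17 at 33385303 to 33389395 (fold 17.1) overlapped all 4 macrophage marks, PPARγ, PU.1, C/EBPβ and H3K9Ace, and at 4092 bp it was also the widest combined region. Width and fold did not always go together. The next widest, on chromosome 17 at 55701940 to 55705303 (3363 bp), held 4 stringent regions with a highest fold of 9.33. A region on chromosome 8 at 42511118 to 42514290 (3172 bp) held a single stringent region with a fold of 5.85. Both lay in adipocyte H3K9Ace domains of about 10 kb, at 10750 and 9800 bp.

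Wide regions without a stringent peak existed too, and carried the same adipocyte mark. The widest, on chromosome 8 at 71810992 to 71813781 (2789 bp), lay 1454 bp from a stringent region and overlapped PU.1 and macrophage H3K9Ace. The next, on chromosome 18 at 11315925 to 11318581 (2656 bp), lay 246489 bp from one and overlapped C/EBPβ. All 4 of the widest in this class overlapped adipocyte H3K9Ace, in domains of 1650 to 10450 bp.

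The limit between the classes separated close neighbours on the side of the second class. Every stringent region that met a combined region lay wholly inside it, so the smallest overlaps are those of the narrowest stringent regions. The 3 smallest, of 119, 131 and 132 bp, belonged to combined regions that overlapped no other list. In 2 of these 3 the combined and the stringent region had the same bounds. The 3 second-class regions nearest to a stringent region lay 4, 6 and 28 bp from it, all 3 overlapped adipocyte H3K9Ace, and 2 of them also overlapped macrophage PPARγ, PU.1, C/EBPβ and H3K9Ace. These last 2 lie on chromosome 8 at 129452389 to 129453197 and on chromosome 1 at 193121386 to 193122776.

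Combined regions with a stringent peak lay closer to other combined regions. The median distance to the nearest other combined centre was 10.7 kb (9.82 to 11.9, quartiles 3.53 and 32.4 kb) in the first class and 17.8 kb (16.9 to 18.7, quartiles 4.84 and 61.3 kb) in the second, a ratio of 0.600. Another combined centre lay within 10 kb of 40.0% of all combined regions. This held for 1223 regions with a stringent peak (48.4%, 46.5 to 50.3%) and 3637 without one (37.7%, 36.8 to 38.7%), a difference of 10.7 percentage points (8.49 to 12.8). At the shortest distance the order was the other way round. A neighbour centre lay within 1 kb of 2.81% of the first class and 3.67% of the second. Regions of the list do not overlap, so a wide region can less easily have a centre that near. Whether this bears on the order was not tested. The median was shorter in the first class on all 19 autosomes.

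**Figure D2:**
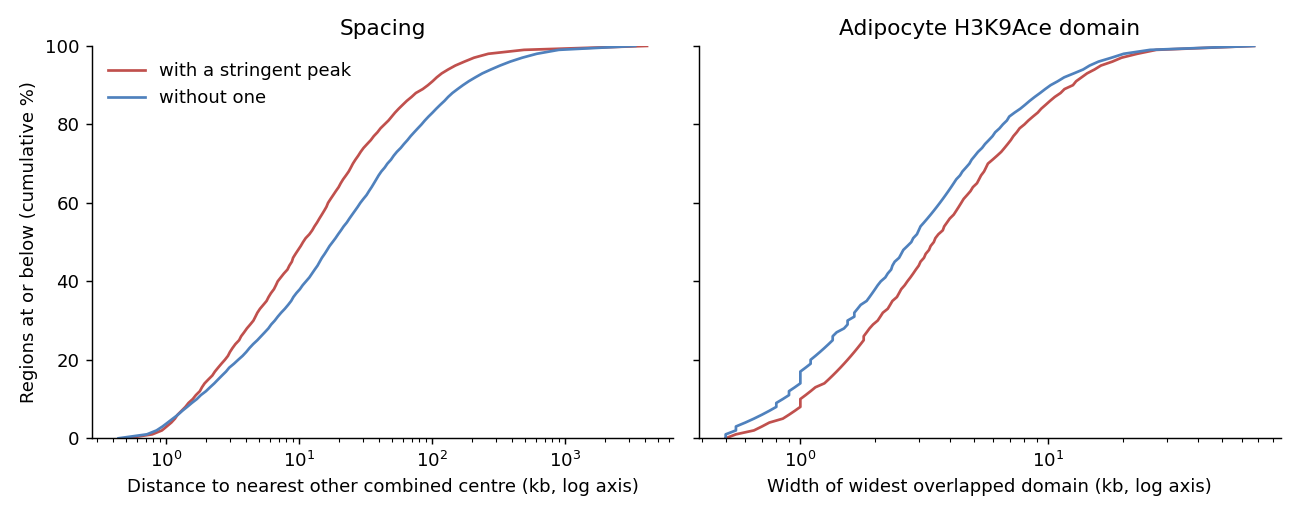
Cumulative percent of combined regions (vertical axis) by the distance to the nearest other combined centre (left, kb, log axis) and by the width of the widest adipocyte H3K9Ace domain overlapped (right, kb, log axis), with and without a stringent peak. The medians are 10.7 and 17.8 kb for spacing and 3.45 and 2.80 kb for domain width, so the stringent-peak curve lies to the left for spacing and to the right for domains over most of each range.

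Runs of neighbouring regions held more stringent peaks and more acetylation. Combined regions were chained wherever neighbouring centres lay within 10 kb. Of the 7305 regions in no chain, 17.9% had a stringent peak, against 23.6% of the 2814 in pairs, 26.3% of the 1663 in runs of 3 or 4, and 31.9% (27.4 to 36.7%) of the 383 in runs of at least 5. Adipocyte H3K9Ace overlapped 57.7%, 77.3%, 87.6% and 93.2% of regions in the same order. The contrast between the classes was not the same in all runs: acetylation was at 76.3% with and 53.7% without a stringent peak in regions outside chains, 87.2% and 74.2% in pairs, 93.6% and 85.5% in runs of 3 or 4, and 91.8% and 93.9% in runs of at least 5. At least 1 stringent peak was present in 41.0% of the pairs and in 84.1% of the 69 runs of at least 5 regions, which have more members that can hold one.

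The runs with the most regions both lie on chromosome 6. One spans 46.7 kb from 94886655 to 94933311 with 9 regions, of which 3 had a stringent peak and all 9 were acetylated in adipocytes. The other spans 24.2 kb from 119360741 to 119384940 with 9 regions, of which 6 had a stringent peak and 7 were acetylated. Another run on the same chromosome, from 124381299 to 124401619, held 8 regions with 4 stringent-peak members, all 8 acetylated. For a typical region of the second class the nearest stringent region was far off, at a median of 130 kb (quartiles 30.0 and 496 kb).

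In percentage points, adipocyte H3K9Ace was the mark in which the classes differed most, while by ratio macrophage PPARγ differed more, at 2.69 against 1.31. Adipocyte H3K9Ace overlapped 67.4% of all combined regions. With a stringent peak the count was 2095 of 2527 (82.9%, 81.4 to 84.3%), and without one 6109 of 9638 (63.4%, 62.4 to 64.3%), a difference of 19.5 points (17.7 to 21.2). Judged by the centre alone, which a wide region cannot meet more easily, 62.3% of all regions lay inside an acetylated domain, and the classes stood at 78.6% and 58.1%, a difference of 20.5 points (18.5 to 22.3). Acetylation covered the whole region in 58.4% and 42.3% of the classes. The overlap was larger in the first class on all 19 autosomes, by 9.22 to 27.7 points.

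The difference was present in 3 of 4 width classes cut at the quartiles of width. From narrow to wide these hold 3460, 2625, 3044 and 3036 regions, and the narrowest takes in all 875 regions of 624 bp. From 119 to 624 bp, 54.9% of stringent-peak regions and 53.2% of the others were acetylated, a difference of 1.70 points whose interval includes 0 (-3.00 to 6.34). From 626 to 899 bp the shares were 72.6% and 55.7%, from 900 to 1137 bp 85.2% and 68.4%, and from 1138 to 4092 bp 94.4% and 84.1%. The differences in these wider classes were 16.9, 16.8 and 10.3 points, with intervals above 0. Across these width classes, acetylation was more frequent in wider regions of both classes, and the contrast between classes was smallest among narrow ones. Under 500 bp the order was the other way round, with intervals that overlap. The shares there were 53.7% (49.2 to 58.1%) of 477 regions with a stringent peak and 56.7% (54.5 to 58.8%) of 2064 without. Second-class regions of 500 to 1000 bp stood at 55.9%.

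**Figure D3:**
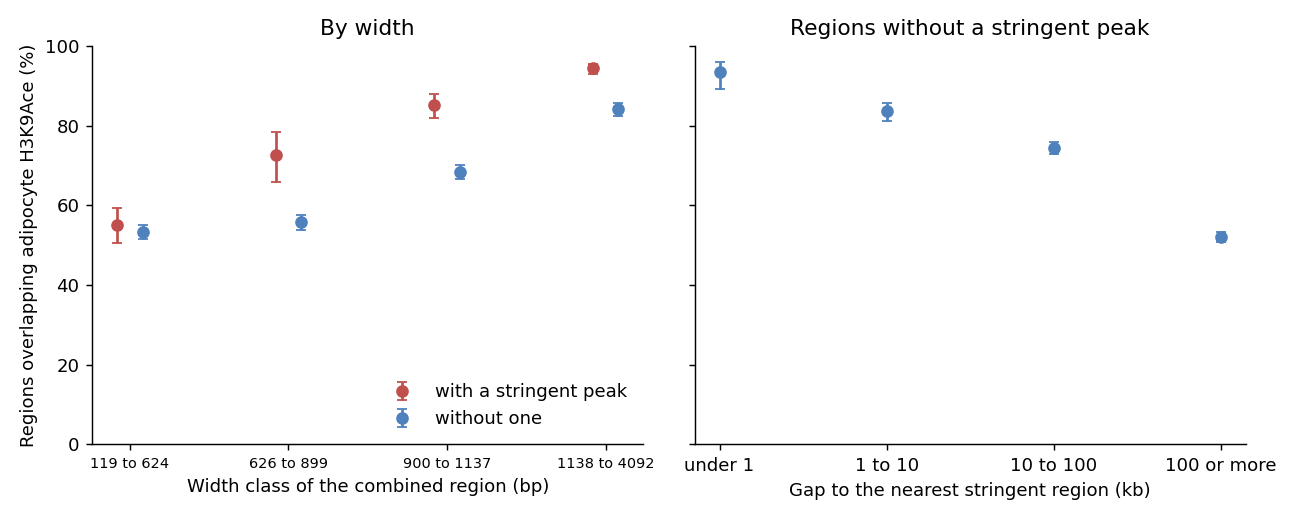
Percent of combined regions overlapping adipocyte H3K9Ace (vertical axis, bars are 95% Wilson intervals), by width class in bp with and without a stringent peak (left) and, for regions without one, by the gap to the nearest stringent region in kb (right). The classes differ by 1.70 points in the narrowest class and by 10.3 to 16.9 points in the wider ones, and the share goes from 93.3% under 1 kb to 52.0% at 100 kb or more.

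The narrow class is where most exact copies of stringent regions sit: 133 are under 250 bp wide and 36 are from 250 to 500 bp. They are among the first-class regions under 500 bp compared above, and the contrast there without them was not tested. Among the 170 combined regions with both bounds equal to a stringent region, 76 were acetylated in adipocytes (44.7%, 37.4 to 52.2%). With 1 shared bound the share was 71.9%, and with the stringent region inside it was 86.5% (85.0 to 87.9%). All 74 regions with at least 2 stringent peaks were acetylated. These had a median width of 1858 bp and lay in domains with a median of 6500 bp. Among the 624-bp regions, 44.5% were acetylated (41.2 to 47.8%).

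Second-class regions within 10 kb of a stringent peak carried this mark at least as often as the first class as a whole (82.9%, 81.4 to 84.3%). That whole includes regions without a near neighbour, so the groups are not alike. First-class regions stood at 76.3% outside chains, 87.2% in pairs, 93.6% in runs of 3 or 4 and 91.8% in runs of at least 5. Of the 210 regions less than 1 kb from a stringent region, 93.3% were acetylated (89.1 to 96.0%). The share was 83.6% of 1027 regions at 1 to 10 kb, 74.3% of 3067 at 10 to 100 kb and 52.0% (50.7 to 53.3%) of 5334 at 100 kb or more. Where a region of either class missed the mark, the nearest acetylated region was 6.41 kb away in the first class (4.77 to 8.30, 432 regions) and 18.9 kb away in the second (17.2 to 20.9, 3529 regions).

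Over all widths, the acetylated domains met by stringent-peak regions were also wider. The widest domain overlapped had a median of 3450 bp (3250 to 3650, quartiles 1800 and 6850 bp) in the first class and 2800 bp (2650 to 2900, quartiles 1350 and 5550 bp) in the second, a ratio of 1.23. Among regions of 626 to 1137 bp the ratio was 1.08, with an interval that includes 1 (0.943 to 1.27). The order was not the same in all width classes. In the narrowest the medians were 2600 bp with a stringent peak and 2950 bp without, and in the widest 4000 and 3100 bp. The full list of 50496 adipocyte domains has a median width of 1000 bp. The 2047 domains with a stringent-peak region had a median of 3150 bp, and the 5227 with second-class regions alone 2250 bp. Of the 2047, the 400 that also held second-class regions had a median of 7925 bp.

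A wide domain covers more DNA and can hold more regions, so densities were compared as well. Domains of 500 bp to 1 kb held 7.51 stringent-peak centres and 38.3 other centres per Mb of domain. In domains of 1 to 2 kb these densities were 22.1 and 71.1 per Mb, and in domains of 8 kb or more 26.2 and 57.6 per Mb. Stringent-peak regions thus made up 16.4% of the combined centres in the narrowest domains (13.9 to 19.3%), 23.7% (21.7 to 25.8%) at 1 to 2 kb and 31.3% (28.9 to 33.8%) at 8 kb or more. Per Mb of domain, the stringent-peak density was lowest in the narrowest band and stood between 21.2 and 26.2 in all others.

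Regions with a stringent peak overlapped macrophage PPARγ more often. Macrophage PPARγ lay at 4.39% of all combined regions. It overlapped 221 regions of the first class (8.75%, 7.71 to 9.91%) and 313 of the second (3.25%, 2.91 to 3.62%), a difference of 5.50 points (4.39 to 6.71) and a ratio of 2.69. The difference was above 0 in all 4 width classes, between 4.65 and 5.31 points, with every interval above 0. It was also above 0 on 18 of 19 autosomes, and -0.225 points on chromosome 19. With centres alone, 3.60% of all regions and 7.16% and 2.67% of the classes lay inside a macrophage PPARγ region.

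The longer macrophage PPARγ list, which includes weaker peaks with a false discovery rate up to 9.67%, reached 10.7% of all combined regions. It overlapped 411 first-class (16.3%) and 894 second-class regions (9.28%), a ratio of 1.75. From the narrowest to the widest width class the differences were 8.23, 7.89, 5.51 and 3.88 points, with every interval above 0. Where macrophage PPARγ met the first class it met the stringent peak itself in 213 of 221 regions (96.4%, 93.0 to 98.2%) rather than the flank.

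At the regions bound by PPARγ in both cell types, PU.1 was less frequent with a stringent peak. PU.1 was present at 121 of 221 first-class regions (54.8%, 48.2 to 61.2%) and 215 of 313 second-class regions (68.7%, 63.4 to 73.6%), with intervals that do not overlap. C/EBPβ was present at 76.5% (70.5 to 81.6%) and 72.2% (67.0 to 76.9%), and macrophage H3K9Ace at 74.2% and 70.6%, with intervals that overlap. Adipocyte H3K9Ace was present at 83.7% (78.3 to 88.0%) and 68.1% (62.7 to 73.0%).

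PU.1 differed little between the classes, and the sign of the difference changed with width. PU.1 overlapped 13.1% of all combined regions, 367 with a stringent peak (14.5%, 13.2 to 16.0%) and 1229 without (12.8%, 12.1 to 13.4%). The difference of 1.77 points (0.286 to 3.34) depended on width. In the 4 width classes it was -0.185, -2.01, 2.41 and -1.53 points, each with an interval that includes 0. Their average, weighted by the number of stringent-peak regions in each class, was -0.450 points. The difference over all widths was above 0 on 12 of 19 autosomes. By centres, PU.1 was at 6.21% of all regions and at 6.53% and 6.12% of the classes, a difference of 0.408 points (-0.619 to 1.54). The centre-based difference had an interval above 0 in 1 of the 4 width classes, from 900 to 1137 bp, at 2.85 points (0.570 to 5.63). PU.1 also lay beside the stringent peak more often than macrophage PPARγ did: in 121 of the 367 overlaps (33.0%) PU.1 met the flank alone, against 8 of 221 (3.62%) for macrophage PPARγ.

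C/EBPβ was somewhat more frequent in the first class. It overlapped 14.2% of all combined regions, 428 with a stringent peak (16.9%, 15.5 to 18.4%) and 1297 without (13.5%, 12.8 to 14.2%), a difference of 3.48 points (1.91 to 5.13). By centres it was at 9.08% of all regions, and the classes stood at 11.3% and 8.50%, a difference of 2.82 points (1.51 to 4.22). The overlap difference over all widths was above 0 on 16 of 19 autosomes. By overlap, the interval lay above 0 in the narrower width classes: the difference was 5.93 points (2.74 to 9.57) from 119 to 624 bp and 5.28 points (0.266 to 11.5) from 626 to 899 bp, then 1.97 (-1.23 to 5.56) and -1.24 points (-3.96 to 1.54) in the wider ones. By centres, the interval lay above 0 from 119 to 624 bp (6.25 points, 3.22 to 9.75) and, narrowly, from 900 to 1137 bp (2.78 points, 0.0178 to 5.99), and included 0 from 626 to 899 bp (3.54 points, -0.306 to 8.90). C/EBPβ met the stringent peak itself in 371 of 428 regions (86.7%).

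Both macrophage factors together were at 7.61% of all combined regions, 227 of the first class (8.98%) and 699 of the second (7.25%). PU.1 alone was at 5.54% and 5.50%, C/EBPβ alone at 7.95% and 6.20%, and neither factor at 77.5% and 81.0%.

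**Figure D4:**
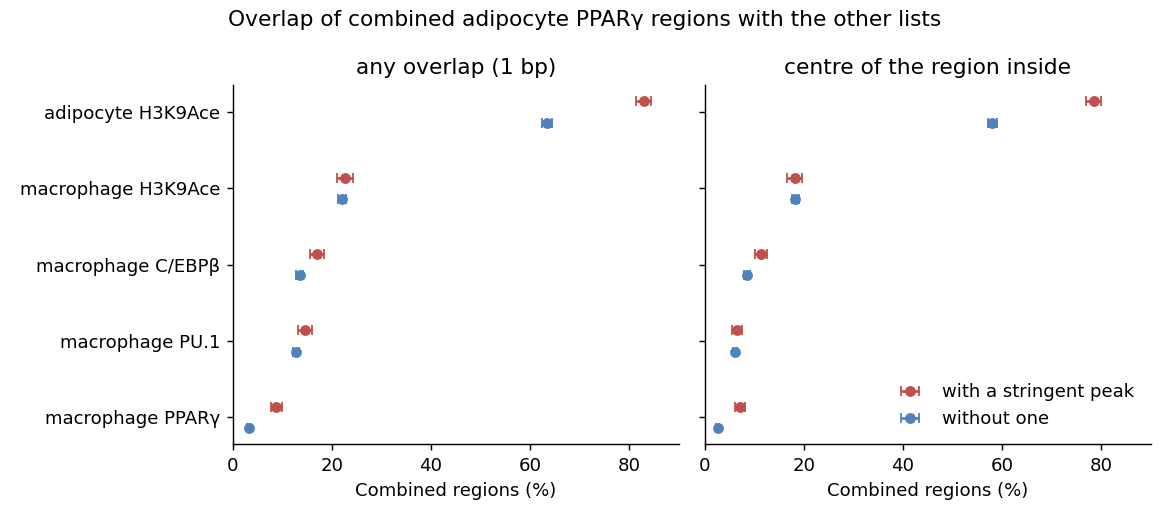
Percent of combined regions (horizontal axis) that overlap each other list, by any overlap of 1 bp (left) or by the region's centre (right), with and without a stringent peak, where bars are 95% Wilson intervals. Adipocyte H3K9Ace (82.9 and 63.4%) and macrophage PPARγ (8.75 and 3.25%) stand apart between classes, and the intervals of macrophage H3K9Ace (22.6 and 22.1%) overlap.

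For macrophage H3K9Ace the interval of the difference between classes included 0. This mark overlapped 22.2% of all combined regions, 570 of the first class (22.6%, 21.0 to 24.2%) and 2130 of the second (22.1%, 21.3 to 22.9%), a difference of 0.456 points (-1.34 to 2.32), and the difference was above 0 on 11 of 19 autosomes. By centres the classes stood at 18.2% and 18.3%, where all regions stood at 18.3%. Within all 4 width classes it was less frequent with a stringent peak, with an interval below 0 in the narrowest and the widest: the differences were -4.79 (-7.77 to -1.33), -3.29 (-8.39 to 3.03), -0.196 (-3.85 to 3.79) and -4.19 points (-7.44 to -0.901) from narrow to wide. The macrophage domains met had medians of 1700 bp (1550 to 1850) and 1850 bp (1800 to 1950).

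Acetylation in the adipocyte alone made up most of the difference between the classes. It was present at 61.3% of stringent-peak regions and 43.1% of the others, a difference of 18.2 points (16.0 to 20.3). Acetylation in both cell types was present at 21.6% and 20.3%, in the macrophage alone at 23 (0.910%) and 173 regions (1.79%), and in neither at 16.2% and 34.8%. Among regions acetylated in adipocytes, 26.1% of the first class (24.3 to 28.0%) and 32.0% of the second (30.9 to 33.2%) were also acetylated in macrophages.

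Within the first class, adipocyte acetylation and macrophage PPARγ were most frequent in the highest class of the authors' fold, which was not seen for PU.1 or C/EBPβ. In 4 fold classes with limits of 5 to 5.68, 5.69 to 6.41, 6.42 to 7.61 and 7.62 to 18.6, adipocyte H3K9Ace was at 78.7%, 78.7%, 83.0% and 91.3%. Macrophage PPARγ was at 7.05%, 6.31%, 9.13% (7.12 to 11.7%) and 12.5% (10.2 to 15.3%). The intervals of the highest fold class and the one just below it overlap. PU.1 was at 15.4%, 13.4%, 15.2% and 14.1%, and C/EBPβ at 17.1%, 15.9%, 17.6% and 17.1%. Combined width had medians of 1022, 1132, 1152 and 1284 bp, and the spacing was 8.41 kb in the highest fold class and 11.1 to 12.5 kb in the others. The exact copies of stringent regions numbered 70, 52, 34 and 14 in the same order.

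The share of combined regions with a stringent peak was uneven between chromosomes. Chromosome 6 had the highest, 352 of 1163 regions (30.3%, 27.7 to 33.0%), followed by chromosome 5 (27.6%), chromosome 15 (26.3%) and chromosome 19 (26.0%). Chromosomes 12 and 14 had the lowest, both at 13.8%. Chromosome 6 held 13.9% of all stringent-peak regions and 8.41% of the others. Adipocyte H3K9Ace on chromosome 6 was at 83.8% of stringent-peak regions and 66.5% of the others, a difference of 17.3 points, so the contrast in acetylation there was close to that over all autosomes. The cause of the unevenness was not tested.

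**Figure D5:**
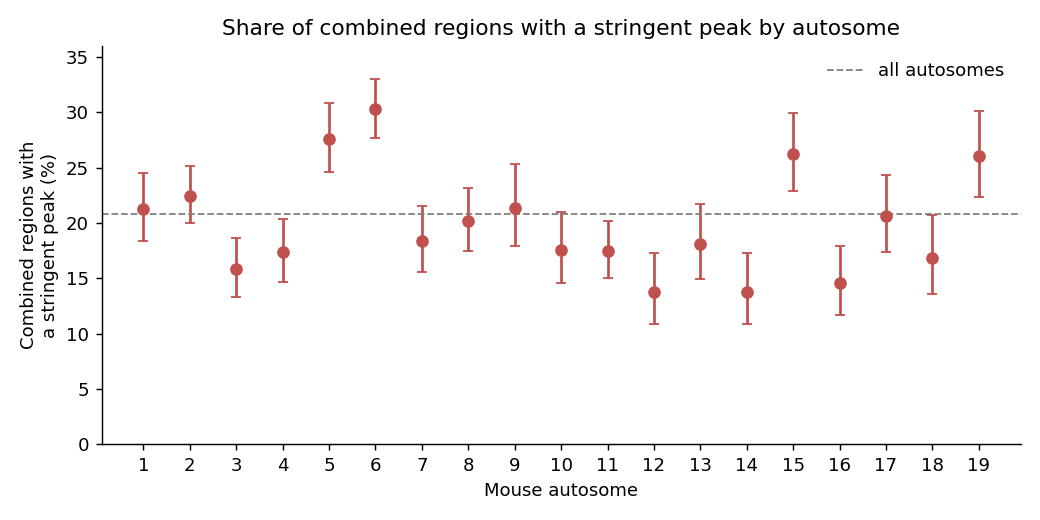
Percent of combined regions with a stringent peak (vertical axis) on each of the 19 mouse autosomes (horizontal axis), where bars are 95% Wilson intervals and the dashed line is the share over all autosomes, 20.8%. Chromosome 6 is highest at 30.3%, and chromosomes 12 and 14 are lowest at 13.8%.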

How the data were processed

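Per the labels' protocols, the authors mapped 36 bp reads to mm8 with ELAND, allowing 2 mismatches and keeping unique best matches. The sources used here do not give the aligner version, the peak-caller settings or the control. The stringent list carries, per the file headers, a fold (a ratio to a control not named), a whole-number signal called peak height and a false discovery rate. That rate, read as a percent because the same column of the longer macrophage list reaches 9.67, is also deposited for that list. These are the authors' values and were used to rank and describe regions. The fold also served in an alternative that kept only stringent regions at or above its median and dropped combined regions holding only lower ones. The other deposited lists give positions alone. The 20 repeated rows of the adipocyte H3K9Ace list were counted once.

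Overlaps of at least 1 bp, centres inside regions, distances and widths were computed on autosomes with Python 3.11.15, NumPy 2.4.6, pandas 2.3.3 and SciPy 1.17.1. The interval arithmetic was tested on simulated data. Named regions are the 6 with the highest stringent fold, the 4 widest of each class, and the 3 of each class nearest its limit; stringent regions outside the combined list are also named, highest fold first. Classes, lists and rules were chosen with earlier results of these data known. Bands of width, gap and domain width, and the densities per Mb, were set after the data were seen. Alternatives changed the overlap rule, the lists, the widths and the regions kept.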

Additional observations from a re-analysis of the deposited data

How the results depend on the processing

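Of 103 alternative values for the 9 results, 80 lay within the interval of the value reported and 23 outside it. The 80 include every value of 2 settings that could change nothing. Asking for at least 50% of the stringent region inside kept all overlaps, since each such region lay wholly inside. Leaving out masked regions removed none, since no combined region overlapped a masked interval. The sign was opposite to that of the value reported in 4. The fold alternative kept stringent regions at or above the median fold and left out first-class regions that held only lower folds. Its share was 11.7% of the remaining combined regions, and its width ratio was 1.45. Its differences were 23.6 points for adipocyte H3K9Ace and 7.47 for macrophage PPARγ. Without chromosome 6 the share was 19.8%. Merging combined regions under 1 kb apart, to 11371, gave a share of 21.7%, a width ratio of 1.42 and 21.7 points for adipocyte H3K9Ace. Keeping only widths between the lower and upper quartile gave 12.8%, a width ratio of 1.09 and a domain ratio of 1.08 (0.943 to 1.27). Adipocyte H3K9Ace regions of at least 1 kb gave 21.8 points, and the longer macrophage PPARγ list 6.99 points. Averages over width classes were weighted by the number of stringent-peak regions in each, so the widest, with 1291, counted most. They were 10.5 points for adipocyte H3K9Ace and 1.37 for C/EBPβ. For macrophage H3K9Ace and PU.1 they were -3.39 and -0.450, opposite in sign to the values reported, 0.456 and 1.77. Macrophage H3K9Ace, whose reported interval includes 0, also turned negative at widths between the quartiles (-0.808) and by centres (-0.180). After seeing the data, 2 further alternatives were added. Without exact copies of stringent regions the share was 19.6%, the width ratio 1.41 and the adipocyte H3K9Ace difference 22.3 points. Without 624-bp regions these were 22.2%, 1.31 and 17.7 points. The spacing ratio ranged from 0.550 to 0.649.

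No paired analysis was possible because each group has 1 library. Depth is unknown, so absence from a list does not show absence of binding. How the joining of 3 datasets set the width of combined regions was not tested.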

Other observations

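The X chromosome was left out of the comparisons. It holds 264 combined regions, of which 23 have a stringent peak (8.71%, 5.88 to 12.7%), below the lowest autosomal share of 13.8%. Adipocyte H3K9Ace overlapped 46.2% of the X-linked combined regions, against 67.4% of autosomal ones, and their median width was 901 bp.

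Among the widest combined regions the macrophage marks did not all point the same way. From 1500 bp upward, macrophage H3K9Ace overlapped 44.7% (39.1 to 50.4%) of the 293 regions without a stringent peak and 29.4% (25.5 to 33.7%) of the 462 with one, and by centres the shares were 35.5% and 21.0%. PU.1 overlapped 27.0% and 18.0%, and C/EBPβ 26.6% and 19.3%, but by centres PU.1 was at 4.78% and 4.98% and C/EBPβ at 6.14% and 8.01%. Macrophage PPARγ overlapped 6.14% (3.92 to 9.50%) and 9.74% (7.36 to 12.8%).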
